A study of Mus musculus with 4 samples.

Results

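Annexin and copine genes were followed through the epithelium of the neonatal mouse jejunum and ileum. The 10 genes described, 8 annexins (Anxa1, Anxa2, Anxa4, Anxa5, Anxa7, Anxa8, Anxa11 and Anxa13) and 2 copines (Cpne3 and Cpne8), were listed by name out of the 21 annexin and copine genes among 32227 genes in the feature lists. They were chosen by name with earlier results of these data in view, namely the levels of Anxa8 and Cpne8 in ileal against jejunal enterocytes. The region difference of the members in enterocyte-like cells is therefore given as a description, with 1 count past the threshold set beside its background and nothing read from it. Tests are read only for stem/progenitor-like cells and for lists of other genes. Those cells come from the same libraries, and the lists were also chosen with earlier results of these data known. These tests are therefore not fully independent of the choice.

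Annexins are calcium-dependent proteins that bind acidic phospholipids through repeated core domains and take part in membrane fusion, vesicle traffic, repair and the linkage of membranes to actin. Copines bind membranes in a calcium-dependent manner through paired C2 domains, followed by a domain related to the integrin A domain. Neonatal ileal enterocytes are specialised for the endocytosis and lysosomal digestion of milk protein, a setting in which membrane traffic is heavy.

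Jejunum and ileum were taken from the same wild-type (WT) mice at postnatal day 6 (P6), giving 4 PIP-seq single-cell libraries, 2 per region. Replicate 1 of each region came from the mouse labelled male in batch 1 and replicate 2 from the mouse labelled female in batch 2, so that mouse, labelled sex and batch cannot be told apart. Epithelium was released with EDTA and dissociated with dispase, and each region was thus represented by 2 animals. Of 36202 called cells, 30521 passed the quality limits.

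Enterocyte-like cells made up 79.8% to 85.2% of each library (4728 to 7669 cells), and each of their clusters carried 9 or 10 of 10 enterocyte markers. Unnamed cells made up a further 8.96% to 14.6%, and a cluster of 2325 of them carried 10 of 10 enterocyte markers too. Stem/progenitor-like cells numbered 393 to 426 per library, enteroendocrine-like cells 46 to 72, immune-like cells 10 to 19 and goblet-like cells 3 to 9. Median depth of kept cells was 12047.5 and 10916 UMIs (unique molecular identifiers, each standing for 1 captured transcript) in the ileum against 4689 and 5883.5 in the jejunum, which is why shares of cells are given at equal depth. Xist and Eif2s3y ran opposite to the sex labels in all 4 libraries, and no pair of libraries shared more than 1 cell barcode. Levels are given as CPM, the UMIs of a gene summed over a class in a library and scaled to a total of 1000000. They are compared between libraries for 1 gene and not between genes.

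The promoters of the members that stood at the ends of the patterns below are shown first, Anxa8 and Cpne8 for the ileal pattern and Anxa1 and Anxa2 for the opposite pattern across ileal enterocyte clusters. Each sequence is the 250 bases before the annotated start in RefSeq on GRCm38.p6, 5′ to 3′ on the gene's strand. Anxa8 lies at chr14:34085729-34085978 (plus strand), Cpne8 at chr15:90679389-90679638 (minus strand), Anxa1 at chr19:20390672-20390921 (minus strand) and Anxa2 at chr9:69453433-69453682 (plus strand). Capitals mark matches to the 6 motifs searched.
Anxa8: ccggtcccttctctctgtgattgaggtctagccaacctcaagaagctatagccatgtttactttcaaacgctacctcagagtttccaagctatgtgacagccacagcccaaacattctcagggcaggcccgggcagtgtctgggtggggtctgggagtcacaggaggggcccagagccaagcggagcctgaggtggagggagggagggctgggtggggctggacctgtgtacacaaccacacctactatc
Cpne8: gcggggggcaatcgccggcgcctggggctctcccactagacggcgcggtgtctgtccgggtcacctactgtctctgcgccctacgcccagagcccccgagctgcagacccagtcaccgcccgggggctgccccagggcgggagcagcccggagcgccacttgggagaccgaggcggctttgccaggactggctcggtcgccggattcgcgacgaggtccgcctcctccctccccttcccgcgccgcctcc
Anxa1: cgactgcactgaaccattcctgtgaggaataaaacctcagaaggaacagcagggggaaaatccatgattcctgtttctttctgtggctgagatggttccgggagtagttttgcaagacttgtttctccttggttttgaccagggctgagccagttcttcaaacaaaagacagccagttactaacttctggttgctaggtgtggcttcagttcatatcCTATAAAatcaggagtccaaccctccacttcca
Anxa2: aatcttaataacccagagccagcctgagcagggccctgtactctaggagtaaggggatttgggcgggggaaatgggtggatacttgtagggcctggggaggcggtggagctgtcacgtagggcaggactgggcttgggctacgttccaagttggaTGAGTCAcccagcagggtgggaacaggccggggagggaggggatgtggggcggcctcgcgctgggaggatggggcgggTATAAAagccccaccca

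Promoters were listed for 8 of the 10 members, and Anxa13 and Cpne3 had no entry. The motifs, searched on both strands over 250 bases before to 50 bases after the start, were CDX-type TTTATNG (in 10.9% of all 32851 promoters listed), GATA-type AGATAA (11.2%), HNF4-type CAAAGTCCA (0.475%), AP-1-type TGANTCA (7.81%), the TATA box TATAAA (13.6%) and SREBP-type TCACNCCA (4.36%). No match to any of them was found in the Anxa8 or Cpne8 window. The Anxa2 promoter held an AP-1-type match at -95 to -89 and a TATA box at -17 to -12 from the start. The Anxa1 promoter held a TATA box at -32 to -27, and the CDX-type match at -33 to -27 on the other strand overlapped it. One of the pair of Anxa4 promoters held a GATA-type match at -43 to -38, and Anxa5, Anxa7 and Anxa11 held none. Cpne8 had the most GC-rich window of the members listed (73.7%), against 57.3% for Anxa8 and a median of 52.7% over all promoters. A match is a string of letters and not a bound site.

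Anxa8 and Cpne8 showed the widest separation between regions in enterocyte-like cells. Anxa8, an annexin reported at late endosomes, reached 15.7 and 24.1 CPM in ileum replicates 1 and 2 (1223 and 2019 UMIs). In jejunum replicates 1 and 2 it stood at 0.807 and 0.863 CPM (42 and 35 UMIs). Both ileal libraries were therefore far above both jejunal ones, with a fitted log2 difference of 4.46 ± 0.32 (SE, n = 2 libraries per region). Cpne8 stood at 279 and 226 CPM in the ileum. Its jejunal levels were 37.3 and 11.9 CPM, and the log2 difference was 3.25 ± 0.51. On a fold scale the jejunal libraries of Cpne8 differed from each other more than the ileal ones did, and within each mouse the ileum was higher by 2.75 and 3.77 on the log2(CPM + 5) scale. On that scale Anxa8 was higher by 1.83 and 2.31, a smaller figure than the fitted one because the added 5 CPM exceeds its jejunal level.

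**Figure D1:**
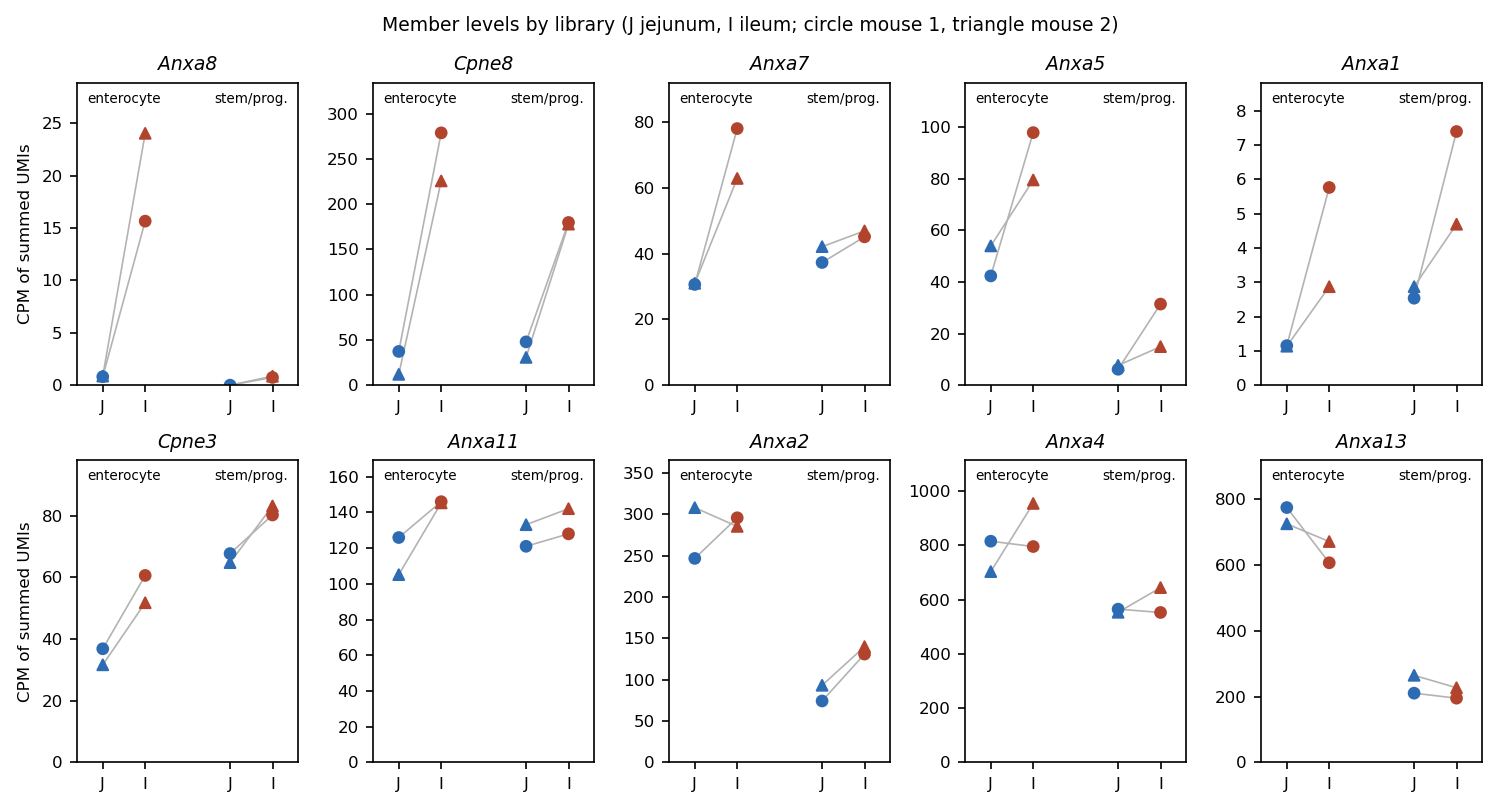
CPM of UMIs summed over enterocyte-like (left in each panel) and stem/progenitor-like cells (right) for the 10 members, with jejunum (J, blue) and ileum (I, red) of the same mouse joined by a line. Anxa8 lies under 1 CPM in every sum shown but that of ileal enterocyte-like cells (15.7 and 24.1 CPM), while Cpne8 is higher in the ileum in both classes.

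Anxa7, Anxa5, Anxa1 and Cpne3 shared the ileal direction at smaller size. Anxa7 (synexin, which promotes calcium-dependent membrane fusion) had 78.1 and 62.9 CPM in the ileum against 30.6 and 31.0 in the jejunum, a log2 difference of 1.07 ± 0.15. Anxa5, which binds exposed phosphatidylserine, had 97.9 and 79.6 CPM against 42.4 and 54.0, a difference of 0.75 ± 0.19. Anxa1, a glucocorticoid-induced annexin that acts on formyl peptide receptors, was low throughout, at 5.77 and 2.87 CPM against 1.15 and 1.13, a difference of 1.78 ± 0.36. In all 4 genes the libraries of the 2 regions did not overlap. For Cpne3 the levels were 60.7 and 51.8 CPM against 36.9 and 31.7, with a difference of 0.59 ± 0.14. For Anxa11, an annexin of RNA granules that tethers them to lysosomes, the gap was narrow at 146 and 145 CPM against 126 and 105 (0.21 ± 0.14). The feature lists also hold an antisense gene at this locus, Anxa11os, and the strand setting of the counting is not given in the sources used here, so reads of the pair may not be separable.

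Anxa2, Anxa4 and Anxa13 did not share the ileal pattern. Anxa13, a largely epithelial annexin of apical membrane traffic, ran the other way, at 606 and 670 CPM in the ileum against 773 and 724 in the jejunum (-0.35 ± 0.15). Anxa2, the partner of S100a10 in a tetramer at the plasma membrane and endosomes, overlapped between regions, at 296 and 285 CPM against 247 and 308 (-0.06 ± 0.17). Anxa4, an annexin of secretory and absorptive epithelia, also overlapped, at 795 and 954 CPM against 815 and 703 (0.09 ± 0.17). The jejunal level of Anxa2 thus lay below the ileal one in mouse 1 and above it in mouse 2, and Anxa4 changed sides in the opposite manner.

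Of the 10 members, 7 had both ileal libraries above both jejunal ones (Anxa11 included), an order seen in 38.4% of the 19498 genes tested in these cells. Anxa13 alone had the reverse order, seen in 23.7%. In the fit over all genes 4 members, Anxa8, Anxa1, Anxa7 and Cpne8, passed an adjusted p of 0.05, all of them higher in the ileum, as did 7.40% of genes tested (4.22% higher and 3.18% lower in the ileum), and with the mouse as a block Anxa5 and Cpne3 passed as well, beside 19.4% of genes. Since this contrast chose the members, nothing is read from these counts.

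The differences also appeared in the share of cells in which a transcript was seen. Enterocyte-like cells with at least 2000 UMIs were thinned to 2000, and shallower cells were left out. This kept 6069 of 6109 and 6560 of 6784 ileal cells, and 7062 of 7669 and 4572 of 4728 jejunal cells. Anxa8 was seen in 2.41% (95% exact interval 2.03 to 2.82) and 3.40% (2.97 to 3.87) of ileal cells. In jejunal cells it was seen in 0.0991% (0.0399 to 0.204) and 0.175% (0.0756 to 0.344). Cpne8 was seen in 40.2% and 33.8% of ileal cells and in 6.30% and 2.27% of jejunal cells. Intervals cover counting error only. In the few immune-like cells, which serve as a class that should lack enterocyte transcripts, Anxa8 was seen in 0 of 10, 0 of 18, 0 of 10 and 0 of 12 cells at a median of 3475 to 7761.5 UMIs, which allows up to 30.9% at this number of cells, and Cpne8 in 3, 2, 0 and 0 cells. Before thinning, Anxa8 had 1 UMI in the immune-like cells of ileum replicate 1 and 0 in those of each other library. At 4000 UMIs it was seen in 1 of 8 immune-like cells of ileum replicate 1 (12.5%, 0.316 to 52.7). With so few immune-like cells, this class cannot tell the share of Anxa8 from background in either region. The same holds for Cpne8 in replicate 1, whose immune-like share was 30% (6.67 to 65.2) in the ileum and 11.1% (1.38 to 34.7) in the jejunum. In the more numerous stem/progenitor-like cells of the same libraries, Anxa8 stood at 0.740 and 0.853 CPM in the ileum and 0 in the jejunum. Its shares there at equal depth are given below.

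**Figure D2:**
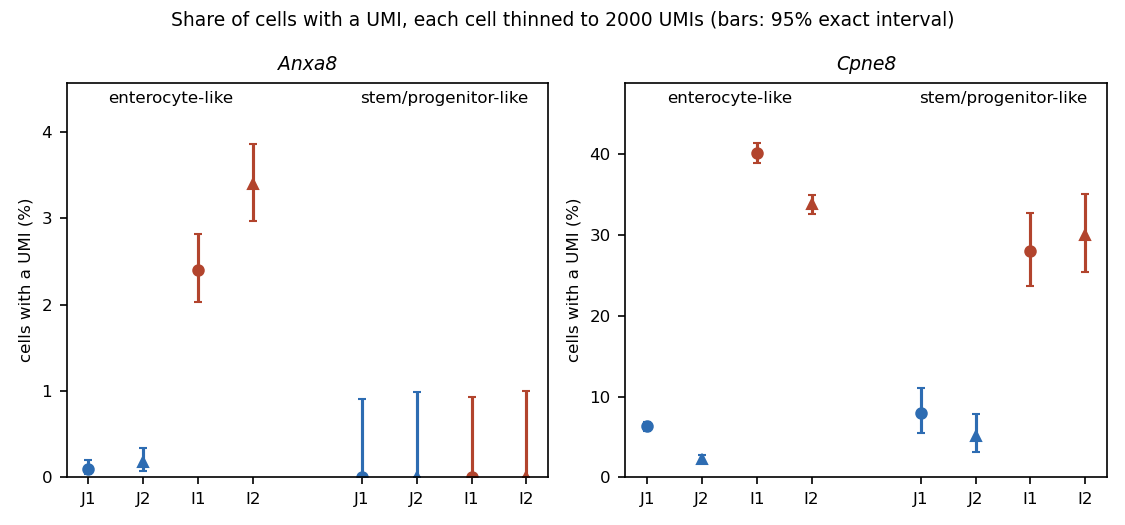
Percent of cells with at least 1 UMI of Anxa8 (left) and Cpne8 (right) after cells were thinned to 2000 UMIs and shallower cells left out, by library (J1, J2, I1, I2: jejunum and ileum, replicates 1 and 2) and class, with 95% exact binomial intervals. Ileal intervals lie above jejunal ones in enterocyte-like cells for both genes, and in stem/progenitor-like cells for Cpne8, where Anxa8 is at 0 in all 4 libraries at this depth.

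Of the remaining members, Anxa7, Anxa5, Cpne3 and Anxa13 kept the order of their CPM at equal depth. Anxa7 was seen in 14.0% and 12.3% of ileal against 5.52% and 5.80% of jejunal enterocyte-like cells, and Anxa5 in 18.7% and 14.3% against 9.22% and 10.2%. Cpne3 was seen in 9.97% and 9.85% against 6.06% and 4.88%. Anxa13 was seen in 68.2% and 73.6% of ileal against 78.1% and 76.2% of jejunal cells. Anxa2 differed here from its CPM in that both ileal shares (42.3% and 41.9%) were above both jejunal ones (34.7% and 39.1%), so no order is read for it.

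Stem/progenitor-like cells show whether the ileal pattern is present outside enterocytes, and here the members were tested. Cpne8 was higher in the ileum, whereas Anxa8 was nearly undetected in both regions. Cpne8 had 180 and 178 CPM in the ileum (486 and 417 UMIs) and 47.8 and 30.6 CPM in the jejunum (132 and 96 UMIs). The ileal libraries lay close together and well above the jejunal ones, with a log2 difference of 2.14 ± 0.20 and an adjusted p of 0.000334 (edgeR quasi-likelihood test, Benjamini-Hochberg over 12356 genes). It passed in all 12 alternative fits (1.84 to 2.48). Its ileal stem level was 64.5% and 78.8% of the enterocyte level of the same library, where Alpi, the enterocyte marker with the lowest such ratio in the ileum, stood at 9.61% and 8.90%. In the jejunum the stem level of Cpne8 was above the enterocyte level, at 128% and 257% of it.

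Anxa8 had 2 UMIs in each ileal library and 0 in each jejunal one over all stem/progenitor-like cells, too few to pass the count filter, and it received no test. Its ileal stem level, 4.72% and 3.55% of the enterocyte level, was below the same ratio for Alpi. At equal depth it was seen in 0 of 396 and 0 of 366 ileal and 0 of 403 and 0 of 370 jejunal cells, with exact upper limits of 0.911% to 1.00%. These limit cells with a UMI and not cells expressing the gene, and at 4000 UMIs it was seen in 2 of 217 cells of ileum replicate 2 (0.922%, 0.112 to 3.29) and in 0 of 265, 257 and 275 cells of the others.

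Anxa5 also rose in ileal stem/progenitor-like cells, from 6.16 and 7.66 CPM in the jejunum (17 and 24 UMIs) to 31.4 and 14.9 CPM (85 and 35 UMIs). On a fold scale the 2 ileal libraries differed about as much from each other as the lower one did from the jejunum, and the log2 difference was 1.69 ± 0.37 (adjusted p = 0.0356 by edgeR's quasi-likelihood test). The call was lost without ileum replicate 1 (1.07, adjusted p = 0.389), without jejunum replicate 1 (0.0703) or jejunum replicate 2 (0.0665), with the sums thinned to the smallest total (0.0536), and without the cells of highest doublet score (1.25, adjusted p = 0.172, edgeR). Anxa2 had 131 and 140 CPM in the ileum against 74.3 and 93.2 in the jejunum without overlap, a difference of 0.64 ± 0.16 that missed the threshold (adjusted p = 0.0663, edgeR). With the mouse as a block, where 10.0% of genes were called, Anxa2 passed it (0.65 ± 0.13, adjusted p = 4.72e-05, edgeR).

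No other member passed. Anxa1 (1.10 ± 0.50) had 20 and 11 UMIs against 7 and 9, Cpne3 differed by 0.25 ± 0.15 and Anxa7 by 0.16 ± 0.17. Anxa4 (0.05 ± 0.14), Anxa11 (0.03 ± 0.15) and Anxa13 (-0.22 ± 0.16) overlapped between regions. In all, 2 of the 10 members were called (9 tested), both higher in the ileum, where 2.61% of genes tested were called, 1.56% higher and 1.05% lower. Both ileal libraries exceeded both jejunal ones in 7 of the 10 (Anxa8 and Anxa1 at few UMIs), an order that 27.1% of genes tested had, and 18.4% had the reverse. Summed stromal markers moved with the region in these cells, at 10.7 and 14.5 CPM in the ileum against 5.07 and 2.87 in the jejunum with 6 to 8 of 9 detected, and their part in the Anxa5 and Anxa2 values was not tested. Over all kept cells the same sum was 3.49 to 4.39 CPM without separation by region.

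**Figure D3:**
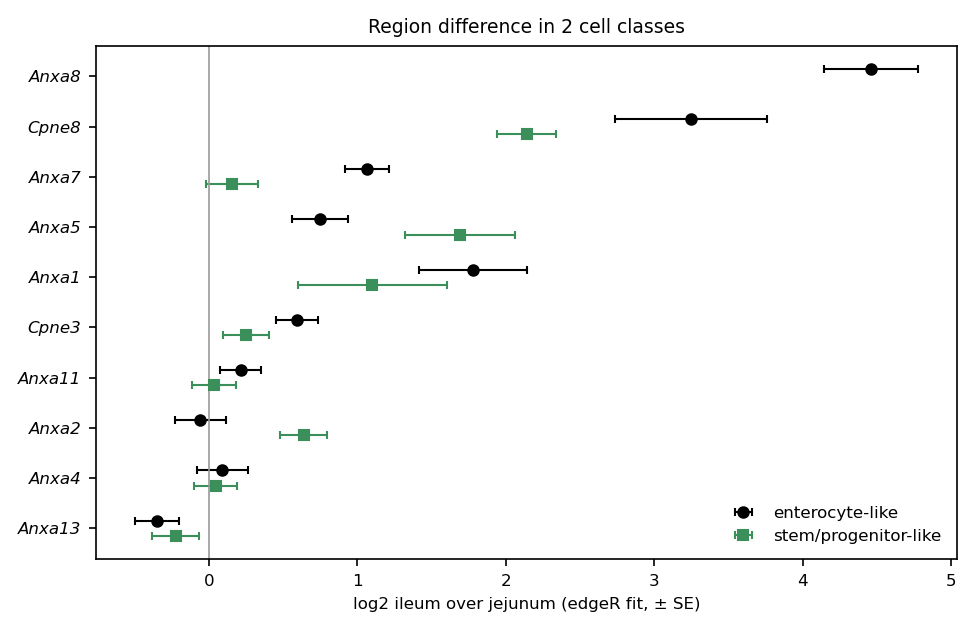
Fitted log2 difference, ileum over jejunum, with its SE for the members in enterocyte-like (black circles) and stem/progenitor-like cells (green squares), n = 2 libraries per region. Cpne8 lies above 2 in both classes, Anxa7 lies at 1.07 (black) and 0.16 (green), and Anxa8 has no stem/progenitor-like value because it did not pass the count filter.

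Levels across cell classes also set the members apart, as a description since the clusters were built from all genes. Anxa13 stood at 606 to 773 CPM in enterocyte-like sums and at 195 to 264 CPM in stem/progenitor-like ones. Anxa2 stood at 247 to 308 CPM against 74.3 to 140, and Anxa5 at 42.4 to 97.9 against 6.16 to 31.4. These 3 annexins were lower in the stem/progenitor-like class in every library. Cpne3 ran the other way, at 31.7 to 60.7 CPM in enterocyte-like and 64.8 to 83.2 in stem/progenitor-like cells, and Anxa1 was likewise higher in the stem/progenitor-like sum of each library, at 128% to 253% of its enterocyte level.

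Enteroendocrine-like cells (46 to 72 per library) carried the Cpne8 pattern too, at 175 and 110 CPM in the ileum (53 and 31 UMIs) against 34.7 and 20.6 in the jejunum (8 and 5 UMIs). Anxa8 had 0 to 3 UMIs there and Anxa1 had 0 UMIs in all 4 libraries. Anxa11 was at 194 to 244 CPM in this class, above each library's enterocyte level of 105 to 146 CPM.

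The regional differences were also measured within single enterocyte-like clusters, where the mix of clusters does not enter. Of 12 clusters with at least 50 cells in every library, both ileal libraries exceeded both jejunal ones in 12 for Cpne8, Anxa5, Anxa7 and Anxa11, and in 11 for Anxa8, Anxa1 and Cpne3. Anxa13 had the reverse order in 9 of them. Anxa4 was higher in the ileum in 6. For Anxa1 some of these orders rested on narrow margins at low levels. In the cluster led by Leap2 it had 1.542 CPM in ileum replicate 2 against 1.536 in jejunum replicate 1. In the cluster led by Celf2 the same libraries had 1.98 and 1.85 CPM. The clusters come from the same 4 libraries and are not 12 replicates. The share of all genes with the ileal order was not counted within clusters, and over the whole class it was 38.4%. A further cluster, led by Reg3g and Meg3, was almost confined to the ileum (530 and 422 cells against 10 and 2) and had 24.5 and 45.2 CPM of Anxa8.

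Across the 13 clusters with both ileal libraries, the members divided by their level in 1 cluster, led by Sprr2a2, Serpinb6b, Trf and Nt5e. Anxa8 was highest in the cluster led by Bcl2l15 and Fabp6, the ileal bile acid binding protein, at 30.3 and 41.7 CPM, where Anxa8 itself is among the leading genes. It was lowest in the Sprr2a2 cluster, at 0.679 and 4.36 CPM, a 14.3-fold range of cluster means. Cpne8 was also lowest in that cluster, at 110 and 96.5 CPM, and highest in the cluster led by Ms4a18 and Defb37, at 326 and 296 CPM, a 3.01-fold range.

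In the same Sprr2a2 cluster Anxa1, Anxa2, Anxa5, Anxa7 and Anxa11 each had their highest ileal level. Anxa1 reached 31.6 and 17.9 CPM there, against a cluster mean of 1.09 CPM where it was lowest. Anxa2 reached 534 and 451 CPM, and Anxa7 115 and 116 CPM. Anxa4 (476 and 716 CPM) and Anxa13 (455 and 574 CPM) were at their lowest in it, as Anxa8 and Cpne8 were. This cluster was shallow, its cells having a median of 0.455 times their library's median UMIs, and the Bcl2l15 cluster was deep, at 1.79 times. The part of depth in these levels was not tested.

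In the jejunum the Sprr2a2 cluster kept only part of that arrangement. Anxa5 (83.8 and 77.7 CPM) and Anxa11 (151 and 130 CPM) had their highest jejunal level in it too. Anxa2 did not, at 220 and 223 CPM, and Anxa1 was at 0.722 and 2.19 CPM. In that cluster Anxa2 was therefore higher in the ileum, unlike in the enterocyte-like class as a whole.

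**Figure D4:**
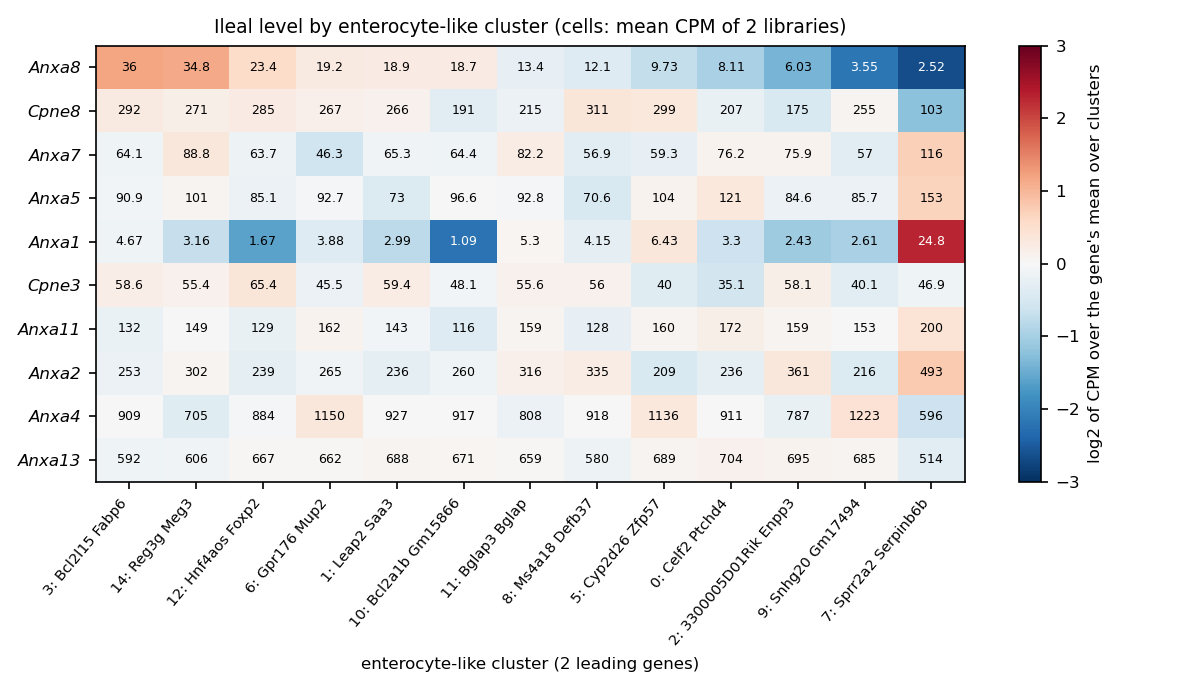
Mean ileal CPM of each member (printed in the cells) in the 13 enterocyte-like clusters with at least 50 cells in both ileal libraries, ordered from high to low Anxa8, with colour giving the log2 ratio to the gene's mean over clusters. Anxa8 runs from 36.0 to 2.52 CPM, and the last column, the Sprr2a2 cluster, is the highest for Anxa1, Anxa2, Anxa5, Anxa7 and Anxa11.

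Likeness to the ileal pair was measured as Pearson's r of log2(CPM + 5) over 12 sums, the 4 libraries by enterocyte-like, stem/progenitor-like and enteroendocrine-like cells, which share their library and depth. Anxa8 had only 0 to 3 UMIs in each stem/progenitor-like and enteroendocrine-like sum, so its r values rest on few counts outside the enterocyte-like sums. Anxa8 and Cpne8 correlated with each other at 0.61, which gave Cpne8 rank 787 among the genes compared with Anxa8. Anxa8 was closer to Anxa7 (0.84), Anxa5 (0.66) and Anxa4 (0.64) than to Cpne8, and the member most like Cpne8 was also Anxa7 (0.74). Of the 10378 genes compared, those most like Anxa8 were Insig1 (0.93), a sterol-responsive brake on cholesterol synthesis, Aldh7a1 (0.93), Golga3 (0.92), Lrp12 (0.89) and Ttc1 (0.88). Those most like Cpne8 included Cldn8 (0.96), a claudin of tight junctions, Cysltr1 (0.95), a leukotriene receptor, Bcl2l15 (0.95) and Emid1 (0.94). The list for Anxa8 was not stable, since 0 of its 5 genes were among the 5 most alike when only the 8 enterocyte-like and stem/progenitor-like sums were used, against 2 of 5 for Cpne8.

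Within single ileal cells Anxa8 was seen slightly more often where a Cpne8 UMI was present than where it was not. At 2000 UMIs, 2.67% and 3.88% of ileal enterocyte-like cells with a Cpne8 UMI also had an Anxa8 UMI, against 2.23% and 3.15% of those without. At 4000 UMIs, 6.36% and 8.65% did, against 4.05% and 5.74%, with a correlation of UMIs of at most 0.0591, which in counts this sparse is no finding.

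The other members of the families and their partners gave the wider view, and these genes were tested in enterocyte-like cells. Over all genes tested there, 7.40% were called, 4.22% higher and 3.18% lower in the ileum. Of the other annexins (Anxa3, Anxa6, Anxa9 and Anxa10), 0 of 4 were called by edgeR, with 0 at an unadjusted p under 0.05, and 0 by DESeq2. Their median log2 difference was 0.39 against -0.01 over all genes tested. The largest was Anxa9 at 0.73 ± 0.30, with 3.95 and 4.23 CPM against 2.90 and 1.63. Of the other copines, 0 of the 6 tested were called by edgeR (Cpne1, Cpne2, Cpne4, Cpne5, Cpne7 and Cpne9, while Cpne6 did not pass the filter), with 1 at an unadjusted p under 0.05, Cpne4 at -0.46 ± 0.18, and 0 by DESeq2. Their median was -0.07.

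Annexin partners moved with the ileum in part. Of 10 genes, 7 were tested and 2 were called, both higher in the ileum, beside 7.40% of all genes tested (4.22% higher). S100a4 and the formyl peptide receptors Fpr1 and Fpr2 did not pass the filter. S100a10, the subunit that joins Anxa2 into its tetramer, had 563 and 504 CPM in the ileum against 277 and 244 in the jejunum. Both ileal libraries were well above both jejunal ones, by 0.91 ± 0.14 (adjusted p = 0.0245, edgeR). Ahnak, a giant scaffold protein that binds the Anxa2 and S100a10 complex, had 95.9 and 49.7 CPM against 24.4 and 21.8 (1.52 ± 0.29, adjusted p = 0.0403, edgeR). The call of each of these genes was lost in 3 of 14 alternative fits. With the mouse as a block, where 19.4% of all genes tested were called, 5 of the 7 were called. Those added were S100a11 (0.64 ± 0.15) and Sri (0.53 ± 0.12), higher in the ileum, and S100a16 (-1.01 ± 0.22), lower.

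Of 27 other C2-domain proteins, all 27 were tested, 3 were called higher and 1 lower in the ileum, with a median difference of 0.08. Over all genes tested 4.22% were called higher and 3.18% lower. Rasal1, a Ras GTPase-activating protein, had 0.705 and 0.810 CPM in the ileum against 6.53 and 8.44 in the jejunum (-3.42 ± 0.27, adjusted p = 0.0118, edgeR). Myof, a ferlin of membrane fusion and repair, had 6.83 and 4.24 CPM against 1.31 and 1.43 (1.88 ± 0.29, adjusted p = 0.0255, edgeR). Syt7, a calcium sensor of lysosomal exocytosis, had 7.17 and 10.1 CPM against 3.40 and 2.29 (1.49 ± 0.29, adjusted p = 0.0417, edgeR). Pla2g4f, a cytosolic phospholipase A2, had 5.25 and 4.98 CPM against 1.94 and 1.92 (1.28 ± 0.20, adjusted p = 0.0266, edgeR). Of 14 alternative fits, the call was lost in 5 for Syt7, 4 for Pla2g4f, 2 for Myof and 1 for Rasal1. Over all kept cells the difference of Syt7 was 0.82 ± 0.25 (adjusted p = 0.104, edgeR). With the mouse as a block 5 of the 27 were called higher and 1 lower, beside 19.4% of all genes tested. Mctp2 (1.47 ± 0.15) and Esyt2 (0.44 ± 0.12) were added, and a count this near the share of all genes is not read as a result. Over the 4 lists 6 of 44 genes tested were called beside 7.40% of all genes, and without ileum replicate 1 none of the 5 rises was called while 230 genes were called in all.

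In stem/progenitor-like cells Ahnak was the 1 gene called of the 27 tested in these lists, beside 2.61% of all genes tested. It stood at 22.2 and 17.5 CPM in the ileum against 7.97 and 6.70 in the jejunum (1.38 ± 0.30, adjusted p = 0.0348, edgeR). Its call was lost in 7 of 12 alternatives, at an adjusted p of 0.147 by DESeq2, and by edgeR at 0.143 with clusters at resolution 0.5, 0.0535 with thinned sums, 0.18 without the highest doublet scores, 0.229 without ileum replicate 1, 0.0519 without jejunum replicate 1 and 0.179 without jejunum replicate 2. S100a10, at 337 and 418 CPM against 311 and 348, overlapped there. With the mouse as a block, where 10.0% of all genes tested were called, 5 of the 27 were called, all higher in the ileum. They were Ahnak, S100a6 (0.92 ± 0.20), Mctp1 (1.81 ± 0.34), Mctp2 (0.87 ± 0.21) and Syt7 (1.09 ± 0.38). The part of the stromal markers, higher in these ileal sums as given above, was not tested for these genes.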

How the data were processed

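The authors deposited PIP-seq UMI counts per gene and cell barcode for 4 libraries. GRCm39 is named in the submitters' processing notes, and the strand setting of the counting is not given in the sources used here. From these counts, cells with over 1000 and under 6000 genes and under 20% mitochondrial UMIs were kept, clustered with Seurat 5.3.0 (CCA, 30 dimensions, resolution 1, 22 clusters) and named from marker genes. Scrublet marked 1 to 3 cells per library and so did not work as a doublet filter. UMIs were summed per library and class and tested with edgeR 4.0.16 (R 4.3.3, TMM, filterByExpr, quasi-likelihood), with DESeq2 1.42.0 as an alternative. Deviations of the 2 libraries of a mouse from the region means correlated at 0.280 (enterocyte-like) and 0.245 (stem/progenitor-like), and the pairing comes from the design, in which both regions were taken from the same mouse. The fits were also run on simulated data, the outcome of which is not reported here. The 10 members, the gene lists and the motifs were chosen with earlier results of these data known. The genes named are the members, the other annexins and copines, called genes of the partner and C2 lists, and the 5 genes most like Anxa8 and Cpne8, of which 1 is not reported here. Genes called only with the block, and S100a4, Fpr1 and Fpr2, were added after their values were seen. With 2 animals per region, the number of animals limits the precision.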

Additional observations from a re-analysis of the deposited data

Results flagged for a closer look

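Anxa2 differed between regions in opposite directions in different enterocyte-like clusters, a contrast that was not tested as an interaction. As the log2 ratio of the ileal to the jejunal mean CPM, it was 1.15 in the Sprr2a2 cluster, 0.61 in the cluster led by Celf2 and Ptchd4 and 0.204 in the cluster led by Bcl2a1b, with both ileal libraries above both jejunal ones. It was -0.294 in the cluster led by Leap2 and -0.352 in the Bcl2l15 cluster, with both jejunal libraries above.

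Anxa13 moved one way in both mice in 2 classes and the other way in a further class. On the log2(CPM + 5) scale, ileum over jejunum, mice 1 and 2 gave -0.35 and -0.111 in enterocyte-like cells, -0.106 and -0.218 in stem/progenitor-like cells, and 0.57 and 0.851 in enteroendocrine-like cells. The last rest on 77 and 47 ileal against 39 and 22 jejunal UMIs. In CPM they stood at 254 and 167 against 169 and 90.6, so the libraries of the regions overlapped in that class. The difference between classes was not tested.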

How the results depend on the processing

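Only 2 libraries stood behind each region, the ileal ones were deeper, and mouse, labelled sex and batch cannot be told apart. In enterocyte-like cells 1442 genes were called, against 3045 by DESeq2, 1 without the count filter, 3776 with the mouse as a replicate block, and 230 to 1686 when 1 library was left out (230 without ileum replicate 1, 850 without ileum replicate 2, 679 without jejunum replicate 2). Of the 4 lists 5 genes were called higher there, against 8 by DESeq2, 0 without the filter, 9 with the block and 0 to 6 without 1 library. The 1 called lower became 0 without the filter, 2 with the block and 1 to 2 without 1 library. In stem/progenitor-like cells 323 genes were called, against 791 without the filter, 1237 with the block and 168 to 392 without 1 library (177 without ileum replicate 1, 168 without jejunum replicate 2). The 1 list gene called higher became 4, 5 and 0 to 3 in these fits, and 0 with thinned sums. The 2 members called higher became 1 with thinned sums, 1 without the highest doublet scores and 1 to 2 without 1 library. The cause of these shifts was not tested. In these cells the small differences changed sign when 1 library was left out, for Anxa4 between -0.0899 (without ileum replicate 2) and 0.17, and for Anxa11 between -0.0633 (without ileum replicate 2) and 0.13, with -0.0388 without jejunum replicate 1. The gap between regions in the share of enterocyte-like cells with a UMI, 2.77 percentage points for Anxa8 and 32.7 for Cpne8, was 6.19 and 52.3 at 4000 UMIs and 14.3 and 66.6 without thinning, where depth differs. At 4000 UMIs, 3177 of 7669 and 1301 of 4728 jejunal cells were too shallow and left out, against 1067 of 6109 and 1224 of 6784 ileal cells. The Anxa8 and Cpne8 likeness was 0.59 with log2(CPM + 1) and 0.64 over 8 sums. In enterocyte-like cells every alternative kept the sign of all members but Anxa2 (-0.23 to 0.17) and Anxa4 (-0.10 to 0.26).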
